A study of Rattus norvegicus with 8 samples.

Results

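The genes described here are those of the primary cilium and of the polycystin and fibrocystin proteins of polycystic kidney disease, measured in whole rat kidneys. They were chosen by gene symbol: Pkd1, Pkd2, Pkhd1, Cep290, Tmem67, Ahi1, Inpp5e, Arl13b, Kif3a and Invs, and every symbol that begins with Ift or Bbs and a digit, or with Nphp, among probe sets annotated to exactly 1 gene. Arl13b had no such probe set and is not analysed here. This gave 34 of 17245 genes on the array, and all 34 lay above the filter that left out the dimmest 20% of genes. HSRA-S rats, born with a congenital solitary kidney, were compared with HSRA-C rats, the controls, which had both kidneys. All came from the HSRA stock, a heterogeneous stock derived rat model of unilateral renal agenesis, and all were 4 weeks old when the whole kidney was taken, so the groups share stock and age and differ by the kidney phenotype given in the labels. The sources used here do not give sex or litter, nor which kidney of an HSRA-C animal was taken. Each group held 4 independent samples with 1 Affymetrix Rat Gene 1.1 ST array each. Precision is limited by the number of arrays.

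The primary cilium is a single, non-motile antenna on the apical side of most kidney tubule cells. It is built and kept up by intraflagellar transport (IFT), in which trains of IFT-B and IFT-A proteins are carried along microtubules by kinesin and dynein motors, while the BBSome moves membrane proteins on those trains and the transition zone at the base controls what enters. Polycystins and fibrocystin sit in the cilium and other membranes, and loss of them or of many of the transport and transition zone proteins gives cystic kidney disease, nephronophthisis, or Bardet-Biedl and Joubert syndromes in people.

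RFX transcription factors are known to drive many ciliary genes through the X-box, a motif made of paired half-sites, and the half-site is shown first because it is a feature that the choice by symbol did not use. Promoter windows, from 250 bases before to 50 bases after the annotated start, were taken from RefSeq for build GRCr8 and existed for 28 of the 34 genes. The half-site GTTGCC, counted on both strands, was present in 10 of 28 windows (35.7%), against 12.2% of the 12503 windows of all genes tested. These 10 genes were Kif3a, Ift20, Ift27, Ift56, Ift81, Ift88, Bbs1, Bbs2, Bbs5 and Nphp4. The letters GTTNCC and GGNAAC in that order, 0 to 3 bases apart, were present in 1 of 28 windows, that of Ahi1, and in 0.752% of the windows of all genes tested. Looser forms of the pair were not searched for, so a window without this match may still hold one. A match describes the letters only. The stretches below show the half-site (GTTGCC, or GGCAAC where it lies on the other strand) in capitals with its flanks, 5′ to 3′ on the strand of the gene, for genes of the transport train and of the BBSome, and for Ahi1 the pair.

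Ift88, chr15:35688933-35688978, plus strand: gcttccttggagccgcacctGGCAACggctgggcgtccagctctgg
Ift81, chr12:39618591-39618636, plus strand: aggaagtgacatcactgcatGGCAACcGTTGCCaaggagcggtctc
Ift20, chr10:63930664-63930709, plus strand: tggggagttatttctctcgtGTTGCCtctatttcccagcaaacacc
Bbs1, chr1:211633427-211633472, minus strand: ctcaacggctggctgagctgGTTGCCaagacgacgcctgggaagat
Bbs2, chr19:10915570-10915615, plus strand: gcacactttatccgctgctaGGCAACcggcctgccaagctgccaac
Ahi1, chr1:17581928-17581981, plus strand: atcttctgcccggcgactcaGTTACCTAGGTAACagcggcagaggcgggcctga

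Cilium and polycystin genes differed little between the solitary and the control kidneys, and no gene of the 34 passed the test. Differences are given as HSRA-S minus HSRA-C on the log2 scale of the array intensities, with the standard error (SE) from limma. They ran from -0.20 for Ift22 to 0.14 for Ift70a2, with 20 genes lower and 14 higher in HSRA-S and a median of -0.02. Over all 13796 genes tested the median was 0.02, with 6145 lower and 7651 higher. At an adjusted p under 0.05, 0 of 34 genes were called, against a background of 0% of all genes. At an unadjusted p under 0.05 in limma, 3 of 34 were lower and 0 of 34 were higher. Over all genes 4.69% were lower and 7.36% higher by that rule, 12.1% in either direction. The share of 8.82% in either direction among the 34 was thus no larger than the background. In the lower direction alone 8.82% was above the background of 4.69%, on 3 genes only. Values did not overlap between the groups for 3 of 34 genes, of which 2 were lower and 1 higher, where the background was 6.29% in either direction, 2.17% lower and 4.12% higher.

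The intervals show how large a difference these arrays leave room for. The 95% interval of the difference lay wholly within 1.5-fold in both directions for 33 of 34 genes, as it did for 94.3% of all genes tested. Within the narrower bound of 1.25-fold it lay for 26 of 34 genes, or 76.5%, against 65.9% of all genes. The median pooled SD between animals was 0.107 for the 34 genes and 0.118 for all genes.

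**Figure D1:**
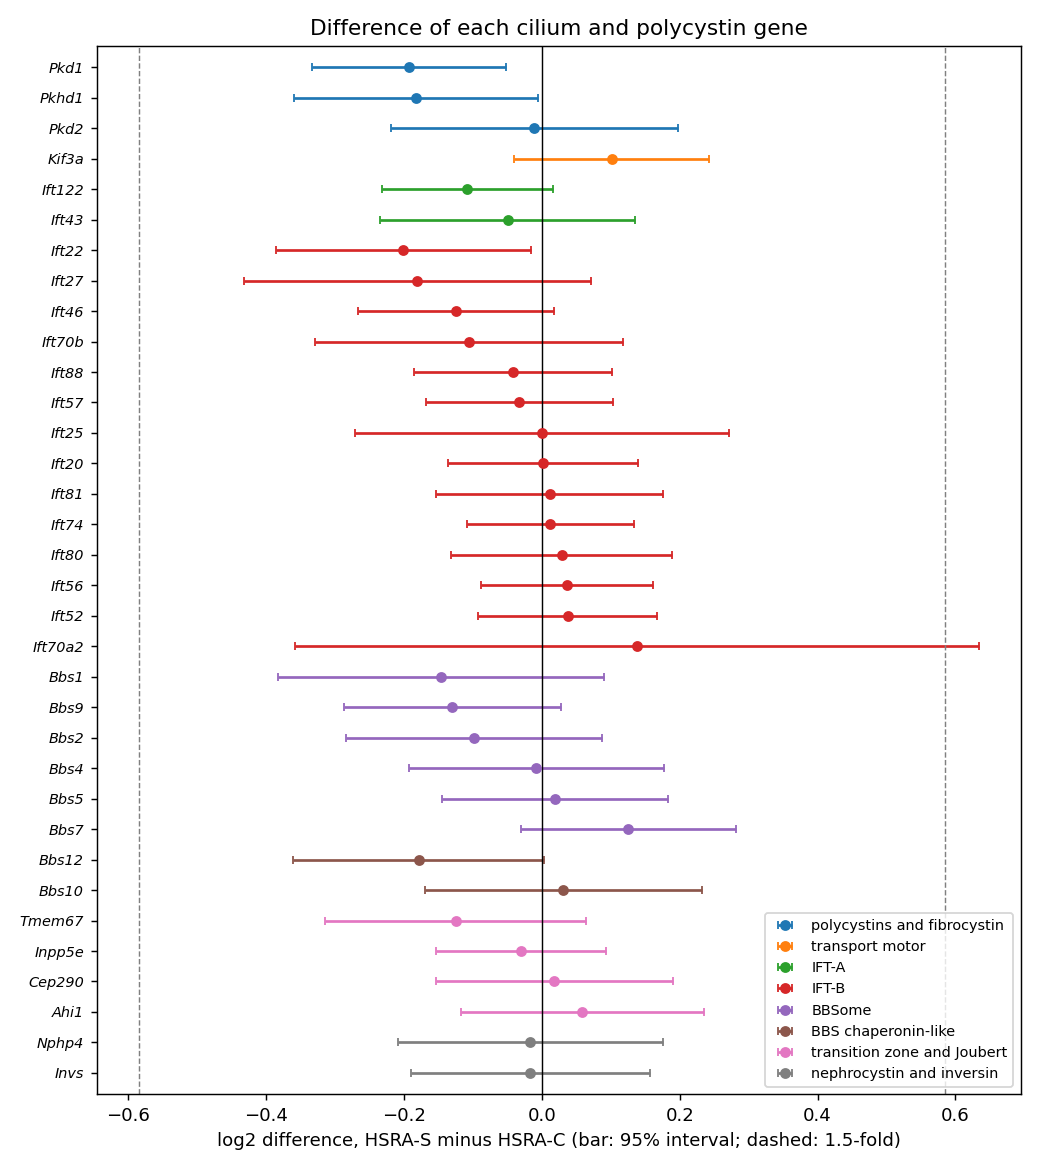
Log2 difference, HSRA-S minus HSRA-C (horizontal axis), for each of the 34 genes (vertical axis, grouped and coloured by role). Points are differences of the means of 4 arrays each, bars are 95% intervals from limma and dashed lines mark 1.5-fold; the bars of Pkd1, Pkhd1 and Ift22 lie below 0, and that of Ift70a2 alone crosses a dashed line.

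Some arrays touch the values below. HSRA-C replicates 3 and 4 stood apart from the other arrays, with scores of 16.7 and 19.5 on the first principal component against -12.8 to -1.20 in the other 6. Their collecting duct and inner medulla markers averaged log2 8.46 and 8.58, against 7.54 to 8.13 in the 4 HSRA-S arrays and 7.87 and 8.09 in HSRA-C replicates 1 and 2. HSRA-S replicate 4 lay at the other end, with the lowest collecting duct mean and the highest proximal tubule mean, log2 10.5 against 9.94 to 10.2 in the others. Markers of proximal tubule, thick limb, collecting duct and podocyte averaged above log2 7 on every array, as the label of whole kidney has it. In a whole kidney, fewer cells of a type and less RNA per cell cannot be told apart. Values without HSRA-C replicates 3 and 4 are given for some genes, and genes without such a value may also have moved. Among genes near no difference, Pkd2, Ahi1, Cep290, Invs, Bbs4, Bbs5, Bbs10, Ift25, Ift57 and Ift74 changed sign without these arrays, all with an unadjusted p over 0.05.

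The membrane proteins of polycystic kidney disease had a median difference of -0.18 over 3 genes, the lowest of the roles with all 8 arrays. Without HSRA-C replicates 3 and 4 it was -0.10, and the BBSome and the chaperonin-like proteins were as low, at -0.10 each. Pkd1 (probe set 10732113) encodes polycystin-1, a large receptor-like membrane protein whose loss gives the dominant form of the disease. Its log2 level was 7.16, 7.12, 7.06 and 7.04 in HSRA-S replicates 1 to 4, against 7.23, 7.24, 7.28 and 7.41 in HSRA-C replicates 1 to 4. Every HSRA-S array was below every HSRA-C array, with a narrow gap between HSRA-S replicate 1 and HSRA-C replicate 1. The difference was -0.19 (SE 0.063, 95% interval -0.33 to -0.05), a 1.14-fold lower level in HSRA-S (limma unadjusted p = 0.0123, adjusted p = 0.338). Without HSRA-C replicates 3 and 4 the difference was -0.14 (SE 0.074, unadjusted p = 0.0998). Those arrays, which had the highest mean of collecting duct markers, also held the 2 highest Pkd1 levels. With the proximal tubule minus collecting duct marker level as a covariate it was -0.13 (unadjusted p = 0.0959). Tsc2, the tuberin gene next to Pkd1 on the same chromosome, averaged log2 7.13 in HSRA-S kidneys, against 7.20 in HSRA-C kidneys, and its groups overlapped. It was looked up after the Pkd1 values were seen.

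Pkhd1 (probe set 10926851) encodes fibrocystin, a single-pass membrane protein of collecting duct and thick limb cells whose loss gives the recessive form of polycystic disease. Its log2 level was 8.72, 8.56, 8.69 and 8.52 in HSRA-S, against 8.75, 8.69, 8.81 and 8.97 in HSRA-C. The groups overlapped slightly, since HSRA-C replicate 2 lay just under HSRA-S replicates 1 and 3. The difference was -0.18 (SE 0.079, limma unadjusted p = 0.0443, adjusted p = 0.404). It was -0.10 without HSRA-C replicates 3 and 4 (unadjusted p = 0.301), which held the 2 highest levels. The same covariate gave -0.07.

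Pkd2 (probe set 10775338) encodes polycystin-2, the cation channel that partners polycystin-1. Its log2 level was 7.81, 7.65, 7.80 and 8.10 in HSRA-S, against 7.82, 7.82, 7.81 and 7.95 in HSRA-C. The HSRA-S arrays spread to both sides of the control arrays, with replicate 4 highest and replicate 2 lowest. The difference was -0.01 with a 95% interval from -0.22 to 0.20 (adjusted p = 0.974). The difference between the shifts of Pkd1 and Pkd2 was not tested.

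The promoter windows of Pkd1 and Pkhd1 are shown because these were the 2 polycystic disease genes with the lower levels. In capitals is the GC box GGGCGG on either strand, which 15 of 28 windows of the genes described here held (53.6%), against 56.2% of the windows of all genes tested. The Pkd1 window held 4 and the Pkhd1 window 0 matches, which describes these 300 bases only.

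Pkd1, chr10:14078429-14078728, plus strand: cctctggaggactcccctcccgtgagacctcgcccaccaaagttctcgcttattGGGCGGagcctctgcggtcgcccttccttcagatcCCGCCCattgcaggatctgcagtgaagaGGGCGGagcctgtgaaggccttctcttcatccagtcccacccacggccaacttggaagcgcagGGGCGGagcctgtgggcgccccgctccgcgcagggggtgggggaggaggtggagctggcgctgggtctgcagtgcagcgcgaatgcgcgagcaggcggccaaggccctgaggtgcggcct
Pkhd1, chr9:30533785-30534084, minus strand: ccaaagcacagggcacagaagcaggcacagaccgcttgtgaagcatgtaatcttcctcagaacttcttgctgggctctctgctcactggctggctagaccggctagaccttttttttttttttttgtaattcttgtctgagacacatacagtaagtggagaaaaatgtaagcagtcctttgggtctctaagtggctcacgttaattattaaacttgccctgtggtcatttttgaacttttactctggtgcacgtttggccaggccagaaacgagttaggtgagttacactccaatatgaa

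**Figure D2:**
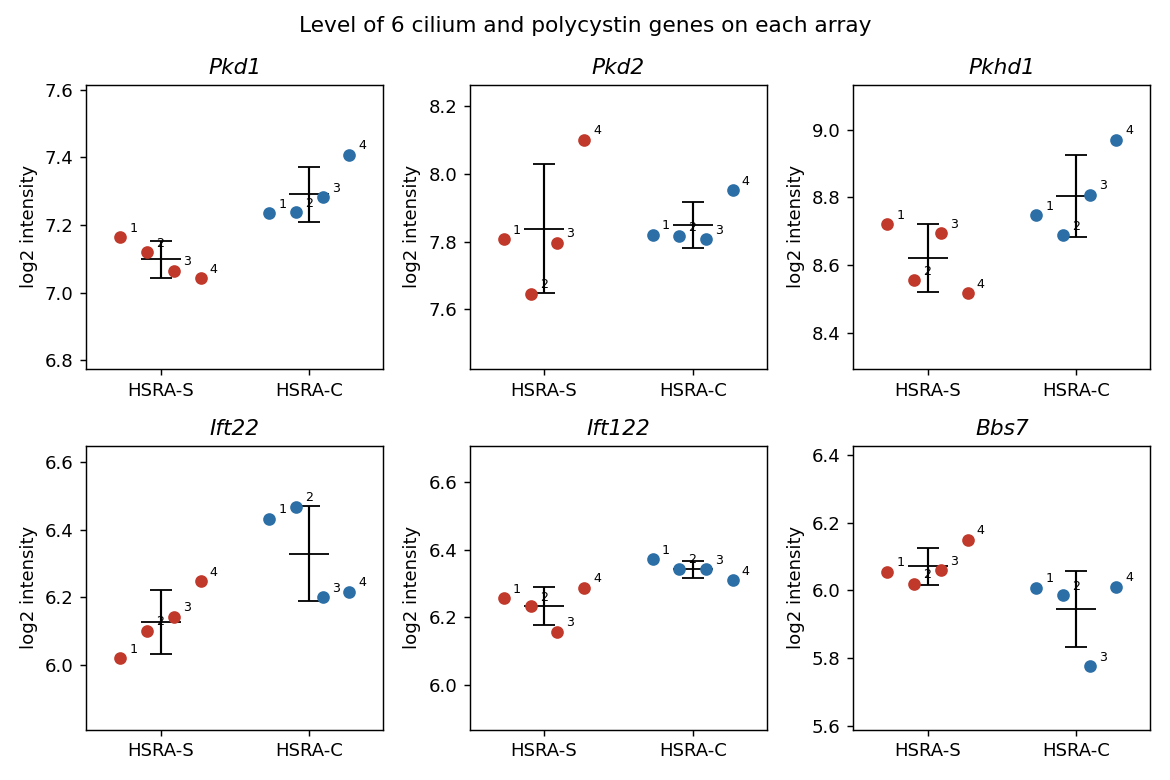
Log2 intensity (vertical axes, all spanning the same range) of Pkd1, Pkd2, Pkhd1, Ift22, Ift122 and Bbs7 on each array of HSRA-S (left) and HSRA-C (right). Numbered points are replicates, and the black marks are the mean and SD of 4; Pkd1 and Ift122 are lower and Bbs7 higher in HSRA-S with no overlap, while Pkd2 spreads widely in HSRA-S.

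The IFT-B trains carry cargo towards the ciliary tip, and their 14 genes were split evenly around no difference, with 6 lower, 8 higher and a median of 0.00. Ift22 (probe set 10757442), a small GTPase-like subunit, had the widest difference of the 34 genes. Its log2 level was 6.02, 6.10, 6.14 and 6.25 in HSRA-S, against 6.43, 6.47, 6.20 and 6.22 in HSRA-C. HSRA-C replicates 1 and 2 were above every HSRA-S array, whereas HSRA-C replicates 3 and 4 lay among them. The difference was -0.20 (SE 0.083, limma unadjusted p = 0.0358, adjusted p = 0.388) and became -0.32 without HSRA-C replicates 3 and 4 (unadjusted p = 0.00537, adjusted p = 0.977). Its difference was thus wider, where those of Pkd1 and Pkhd1 were narrower, when the arrays with a high mean of collecting duct markers were left out.

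Ift27, another GTPase-like subunit, which links the trains to the BBSome, took a similar course. It was at log2 5.23, 4.93, 4.80 and 5.15 in HSRA-S, against 5.39, 5.31, 5.10 and 5.03 in HSRA-C, and its groups overlapped. Its difference of -0.18 (SE 0.11) became -0.32 without HSRA-C replicates 3 and 4 (unadjusted p = 0.0340, adjusted p = 0.977). Ift25, the binding partner of Ift27, was at 0.00 with all 8 arrays. Its 95% interval of -0.27 to 0.27 also held the -0.18 of Ift27. Leaving out HSRA-C replicates 3 and 4 gave -0.10 (SE 0.15) for Ift25. Without these 2 control arrays, 2 of 34 genes, Ift22 and Ift27, had an unadjusted p under 0.05, both lower, and 0 were higher. The background was then 4.85% of all genes in either direction, 2.17% lower and 2.68% higher. Values did not overlap between the groups for 6 of 34 genes, 5 lower and 1 higher, against 13.9% of all genes in either direction, 5.5% lower and 8.42% higher.

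With all 8 arrays, the other IFT-B genes had smaller differences than Ift22 and Ift27. Ift88, whose partial loss gives cystic kidneys in mice, averaged log2 5.98 ± 0.091 in HSRA-S kidneys, against 6.02 ± 0.049 in HSRA-C kidneys (SD, 4 arrays each), a difference of -0.04. The tubulin-binding pair Ift74 and Ift81 stood at 0.01 each. Ift20, which also acts at the Golgi, was at log2 9.66, 9.67, 9.69 and 9.74 in HSRA-S, against 9.70, 9.57, 9.77 and 9.72 in HSRA-C, and had a difference of 0.00. Core subunits Ift46 and Ift52 were at -0.12 and 0.04. Ift57 and Ift80 were at -0.03 and 0.03, and Ift56 at 0.04. Ift70b was at -0.11.

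Ift70a2 was the dimmest and least precise of the genes, with a mean of log2 3.77 just above the filter at 3.63. Its levels of 4.48, 3.29, 3.70 and 3.89 in HSRA-S and 3.55, 3.42, 3.8998 and 3.93 in HSRA-C gave a difference of 0.14 with an SE of 0.22. Without HSRA-C replicates 3 and 4 it was 0.35. With all arrays it was the 1 gene whose 95% interval reached past 1.5-fold (-0.36 to 0.63). Ift70a2 and Ift70b are close paralogs, and whether their probes tell them apart was not tested.

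IFT-A trains return cargo to the cell body and bring membrane proteins in. Ift122 (probe set 10858038), a core IFT-A subunit, was at log2 6.26, 6.23, 6.16 and 6.29 in HSRA-S, against 6.37, 6.34, 6.34 and 6.31 in HSRA-C. Every HSRA-S array was below every HSRA-C array, but by a small margin: the difference was -0.11 (SE 0.056, adjusted p = 0.460), a 1.08-fold lower level. It was -0.12 without HSRA-C replicates 3 and 4. Ift43, a peripheral IFT-A subunit, was at -0.05 with overlapping groups. Kif3a, a motor subunit of the kinesin that drives trains to the tip, was on the other side at 0.10 (SE 0.063). Its log2 level was 5.68, 5.59, 5.74 and 5.75 in HSRA-S, against 5.56, 5.61, 5.67 and 5.51 in HSRA-C, and its groups overlapped.

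BBSome subunits went both ways. Bbs7 (probe set 10822864) was the 1 gene that was higher in HSRA-S without overlap, at log2 6.06, 6.02, 6.06 and 6.15 against 6.01, 5.99, 5.78 and 6.01 in HSRA-C. Its difference of 0.13 (SE 0.070, adjusted p = 0.493) rested partly on the low HSRA-C replicate 3, without which it was 0.07. It was also 0.07 without HSRA-C replicates 3 and 4. Bbs1, which binds the small GTPase that recruits the complex to membranes, was at -0.15 (SE 0.11), and at -0.25 without HSRA-C replicates 3 and 4. Its log2 level was 7.05, 7.28, 7.18 and 7.46 in HSRA-S, against 7.58, 7.40, 7.39 and 7.18 in HSRA-C, and its groups overlapped widely. Bbs9 and Bbs2 were at -0.13 and -0.10, of which Bbs2 was at -0.19 without those arrays. Bbs4 was at -0.01 and Bbs5 at 0.02, of which Bbs5 was at -0.07 without HSRA-C replicates 3 and 4.

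The chaperonin-like proteins Bbs10 and Bbs12 help to assemble the BBSome. Bbs12 was at log2 5.30, 5.14, 5.32 and 5.47 in HSRA-S, against 5.38, 5.61, 5.45 and 5.49 in HSRA-C. Its groups overlapped through HSRA-S replicate 4, and its difference of -0.18 (SE 0.082, unadjusted p = 0.0539) lay just outside the unadjusted threshold. Bbs10 was at 0.03 (95% interval -0.17 to 0.23).

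At the transition zone, Tmem67, the membrane protein meckelin, was at -0.13 (SE 0.085), with log2 levels of 6.35, 6.36, 6.69 and 6.57 in HSRA-S against 6.63, 6.69, 6.53 and 6.62 in HSRA-C. HSRA-S replicates 1 and 2 were below all control arrays and the other HSRA-S arrays lay among them. Ahi1, known as jouberin, was at 0.06 and Cep290, a scaffold between microtubules and membrane, at 0.02. A probe set shared by Rlig1 and Cep290, which was not used for the comparison, stood at 0.07. Inpp5e, a phosphoinositide phosphatase of the ciliary membrane, was at -0.03 by its brighter probe set and at -0.07 by its other one, the same direction. It was the only one of the 34 genes with several probe sets of its own. The transition zone protein nephrocystin-4, encoded by Nphp4, and inversin, encoded by Invs and linked to nephronophthisis and to left-right placement of organs, were both at -0.02, with 95% intervals of -0.21 to 0.18 and -0.19 to 0.16.

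Across arrays, the genes did not move as a block. The number of genes below their own mean over 8 arrays was 18, 25, 21 and 11 of 34 in HSRA-S replicates 1 to 4 and 16, 10, 13 and 15 in HSRA-C replicates 1 to 4. The median deviation of the 34 genes was -0.03, -0.05, -0.04 and 0.04 in HSRA-S, against 0.00, 0.04, 0.01 and 0.00 in HSRA-C. Of all 13796 genes tested, 4867, 7303, 6413 and 7558 were below their mean in HSRA-S, against 7717, 6753, 7034 and 7565 in HSRA-C. Their median deviation was 0.047, -0.007, 0.009 and -0.015 in HSRA-S, against -0.015, 0.002, -0.003 and -0.016 in HSRA-C. HSRA-S replicate 1 was thus shifted up as a whole, while its cilium genes were not. For the 34 genes, HSRA-S replicates 1 to 3 were slightly low. HSRA-S replicate 4 lay close to the highest control array, HSRA-C replicate 2. In HSRA-S replicate 2 all 4 transition zone and Joubert genes were below their mean, and in HSRA-S replicate 3 this held for 11 of 14 IFT-B genes.

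**Figure D3:**
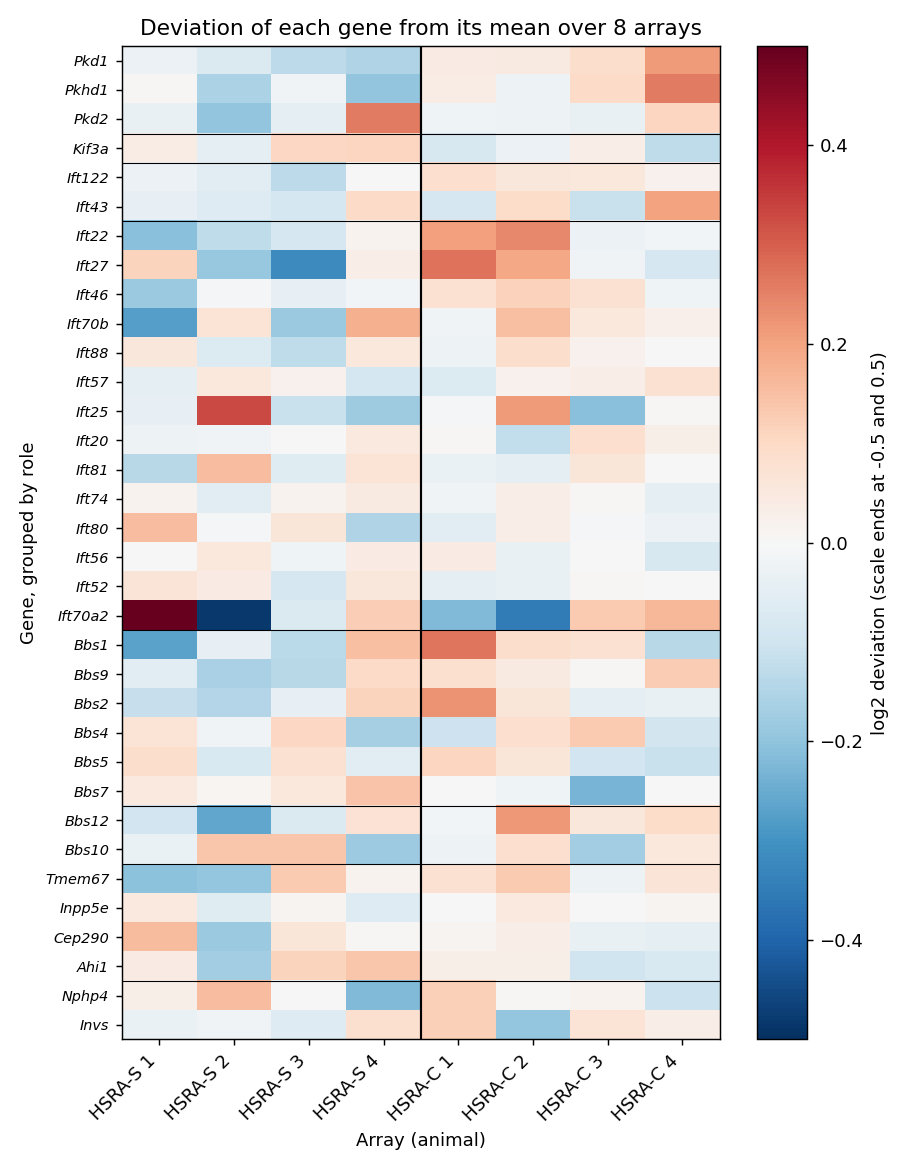
Deviation of each gene's log2 intensity from its mean over 8 arrays (colour, red above and blue below the mean), with genes in rows grouped by role and arrays in columns, HSRA-S left of the black line and HSRA-C right of it. Pkd1 alone changes colour at the line on all 8 arrays, and the deepest colours belong to the dim gene Ift70a2.

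Levels of some genes lay beside the balance of tubule segments. The mean of the proximal tubule markers minus that of the collecting duct markers was 2.11, 2.16, 2.08 and 2.94 in HSRA-S, against 2.26, 2.09, 1.499 and 1.35 in HSRA-C. All 14 tested proximal tubule markers entered this value, with 11 higher and 3 lower in HSRA-S kidneys, as did all 14 tested collecting duct markers, with 1 higher and 13 lower. Without HSRA-C replicates 3 and 4, 7 of 14 proximal tubule and 9 of 14 collecting duct markers were lower. The 2 control arrays of low balance had the highest Pkd1 and Pkhd1 levels, and HSRA-S replicate 4, of highest balance, the lowest. The arrays fall into separate clusters on this measure, so no correlation is given.

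**Figure D4:**
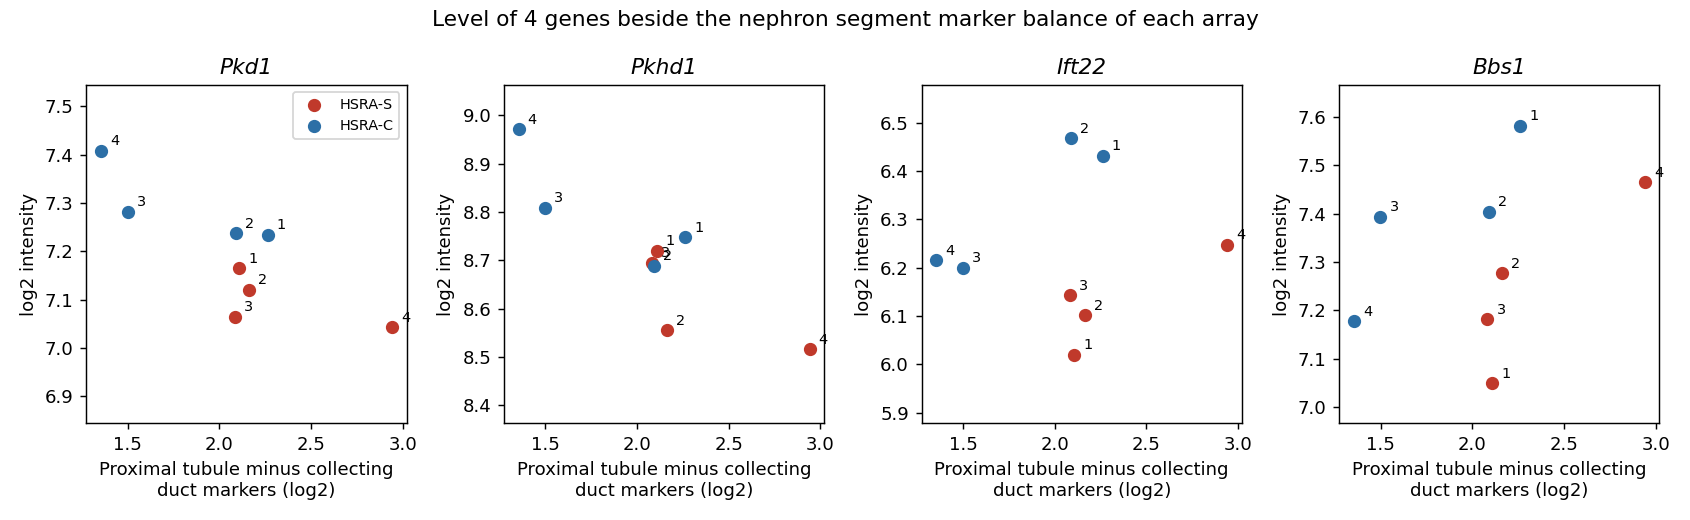
Log2 intensity of Pkd1, Pkhd1, Ift22 and Bbs1 (vertical axes) against the mean of proximal tubule markers minus that of collecting duct markers (horizontal axes, log2) on each array, numbered by replicate. HSRA-C replicates 3 and 4 lie at the left and HSRA-S replicate 4 at the right; Pkd1 and Pkhd1 are high at the left, while Ift22 and Bbs1 are highest in HSRA-C replicate 1 or 2 in the middle.

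Other genes of the pathway were read from lists of related genes. For counts at the unadjusted threshold in these lists, the background was again 4.69% of all genes lower and 7.36% higher, and for groups without overlap 2.17% lower. Of 21 tested genes of transport trains, motors and BBSome that carry other names, 10 were higher and 11 lower, with a median of 0.00. By the unadjusted threshold 1 was lower and 0 were higher: the kinesin subunit Kif3c at -0.27 (SE 0.081, adjusted p = 0.331). It was at -0.19 without HSRA-C replicates 3 and 4, and averaged log2 4.65 in HSRA-S against 4.92 in HSRA-C, with overlapping groups. The ubiquitin ligase Trim32, a Bardet-Biedl gene, was at 0.16 (0.09 without HSRA-C replicates 3 and 4), and the ciliary dynein heavy chain Dync2h1 at -0.10. Of 37 tested genes of the transition zone and basal body, 17 were higher and 20 lower, with a median of -0.01, and 1 was higher by the unadjusted threshold, the distal appendage protein Cep89 at 0.23 (SE 0.099).

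Among 18 tested cystic kidney genes outside the choice by symbol, 7 were higher and 11 lower, with a median of -0.03. Here 3 were lower by the unadjusted threshold and 0 higher. Glis2, a zinc finger transcription factor of nephronophthisis, was at log2 9.36, 9.20, 9.35 and 9.26 in HSRA-S, against 9.47, 9.36, 9.49 and 9.55 in HSRA-C. Its groups did not overlap, and its difference of -0.18 (SE 0.066, adjusted p = 0.361) was -0.13 without HSRA-C replicates 3 and 4. The Wnt coreceptor Lrp5 was at -0.22, and at -0.13 without them, and the tumour suppressor Vhl at -0.18, and at -0.23 without them.

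Hedgehog signals pass through the cilium, and 5 of 14 tested genes of this pathway were higher and 9 lower, with a median of -0.07, which was -0.03 without HSRA-C replicates 3 and 4. By the unadjusted threshold 2 were lower, both without overlap, and 0 higher. Smo, the membrane transducer of the signal, was at log2 7.02, 6.93, 7.07 and 6.998 in HSRA-S, against 7.13, 7.10, 7.24 and 7.16 in HSRA-C. Its difference was -0.15 (SE 0.060, adjusted p = 0.373), and -0.11 without HSRA-C replicates 3 and 4. The coreceptor Boc was at -0.29 (SE 0.090, adjusted p = 0.331), and at -0.14 without them. Stromal and matrix markers, with 0 higher and 8 lower of 8 tested, averaged log2 7.58 to 7.96 in HSRA-S, against 7.84, 7.94, 8.20 and 8.27 in HSRA-C, and their part in these differences was not tested.

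Motile cilium genes were dim, with 11 of 17 on the array above the filter, 6 higher and 5 lower, and 0 of 11 past the unadjusted threshold in either direction. Polycystin-like channels Pkd2l1 and Pkd2l2 were at -0.08 and -0.04, and at -0.01 and -0.24 without HSRA-C replicates 3 and 4. Cilia are taken apart before division, and of 12 genes of disassembly and mitosis 10 were higher and 2 lower in HSRA-S. By the unadjusted threshold 5 were higher: Rrm2 (0.65), Ccnb1 (0.70), Top2a (0.68), Mki67 (0.66) and Cdk1 (0.50), all genes of DNA synthesis or division. The rest of the list did not reach it: Plk1 (0.41), Bub1 (0.32), Nek2 (0.24), Kif2a (0.17), Hdac6 (0.05), Aurka (-0.04) and Kif24 (-0.11). The mean of that list was log2 6.34, 6.28, 6.16 and 5.79 in HSRA-S, against 5.61, 6.19, 5.70 and 5.67 in HSRA-C. Its median difference was 0.36, and 0.19 without HSRA-C replicates 3 and 4. Leukocyte markers, with 9 of 9 tested higher and 3 of them by the unadjusted threshold, averaged log2 5.76, 5.72, 5.59 and 5.33 in HSRA-S kidneys, against 5.31, 5.45, 5.31 and 5.10 in HSRA-C kidneys. HSRA-S replicates 1 to 3, where the cilium genes lay slightly below their means, were 3 of the 4 arrays with high division genes, and HSRA-C replicate 2 was the other. Its cilium genes were on the high side (median deviation 0.04). Aurka, a kinase that promotes cilium disassembly, was at -0.04 and was looked up after other values were seen. The part of cell division or of leukocytes in the cilium gene values was not tested.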

How the data were processed

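The values deposited by the authors are probe set intensities on a linear scale from 1 array per sample, made with RMA per the submitters' processing notes. Software, version and genome build of this step are not stated in any label or header. RMA itself gives log2 values, while the deposited intensities were on a linear scale. RMA equalises array distributions and compresses dim signals, so small differences of dim genes are understated. Array medians were 30.8 to 32.3.

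The log2 of each intensity was taken. Of 29214 probe sets, 18644 had 1 gene symbol in the platform annotation. The brightest probe set stood for each gene, and the dimmest 20% of genes were left out (below log2 3.63), leaving 13796. Groups were compared with limma 3.58.1 in R 4.3.3 (lmFit and eBayes, no covariate). P-values were adjusted by Benjamini-Hochberg over all 13796 genes, with a threshold of 0.05. The steps were tested on simulated data.

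The genes and lists were chosen with earlier results of these data known. Of the 34 genes, values per array are given for Pkd1, Pkd2, Pkhd1, those at an unadjusted p under 0.05 or without overlap, and the gene of largest SE. Up to 3 genes of smallest p are named per related list. The values per array of Ift20, Ift27, Kif3a, Bbs1, Bbs12, Tmem67, Glis2 and Smo, and Tsc2 and Aurka, were added after their values were seen. So were the remaining genes of the disassembly and mitosis list and the named collecting duct markers. Alternatives were other filters, probe set means, an intensity trend, log2(value + 16), centring, array weights, a replicate block, a segment marker covariate and leaving arrays out.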

Additional observations from a re-analysis of the deposited data

Results flagged for a closer look

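In 3 of 68 sets of 4 arrays (34 genes in each group), 1 array lay far from the other 3, where chance gives about 1 in 20. Ift52 was at log2 7.33 in HSRA-S replicate 3 and at 7.46 to 7.48 in the other HSRA-S arrays. Bbs7 was at log2 5.78 in HSRA-C replicate 3 and at 5.99 to 6.01 in the other HSRA-C arrays. Pkd2 was at log2 7.95 in HSRA-C replicate 4 and at 7.81 to 7.82 in the other HSRA-C arrays.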

How the results depend on the processing

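Under 18 alternatives the differences of Pkd1 (-0.21 to -0.13), Pkhd1 (-0.22 to -0.07), Ift22 (-0.33 to -0.15), Ift122 and Bbs7 kept their sign, and none of the 34 genes passed adjustment. That of Pkd2 lay between -0.10 and 0.05. The median of the 34 genes stayed negative. The number of genes past adjustment over all genes, 0 as reported, was 1 with the dimmest 50% left out, with an intensity trend, with log2(value + 16) and with array weights. Of the 34 genes, 3 were under an unadjusted p of 0.05 as reported (12.1% of all genes), 5 with array weights (16.04% of all genes) and 7 with the segment marker covariate (7.93%), the cause of which was not tested. With the replicate block it was 1 gene, Pkd1 (11.5% of all genes). Leaving out 1 array gave 1 to 4 genes (7.32% to 14.1% of all genes). The lowest was without HSRA-S replicate 2 (Pkd1, with 9.52% of all genes). Leaving out HSRA-C replicates 3 and 4 gave 2 (4.85% of all genes). Pkd1 missed that p in 2 alternatives (without these control arrays, and with the covariate), and Pkhd1 and Ift22 in 7 each, the block included: Pkhd1 in these same settings and without HSRA-S replicate 2 or 4 or HSRA-C replicate 3 or 4, and Ift22 with centred arrays and without HSRA-S replicate 1, 2 or 3 or HSRA-C replicate 1 or 2. The labels do not say that replicate numbers pair animals: deviations of same-numbered arrays correlated at -0.11 to 0.13, and 1 of 4 numbers correlated best with its own. RMA compression of dim signals limits what Ift70a2, Ift25 and the motile cilium genes can show.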

Other observations

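With the segment marker balance as a covariate, an alternative, the genes under an unadjusted p of 0.05 in limma were Ift22 (difference -0.33), Ift27 (-0.34), Ift46 (-0.17), Bbs1 (-0.32), Bbs2 (-0.23), Bbs9 (-0.19) and Bbs12 (-0.24), all lower in HSRA-S. These are some of the genes of the IFT-B train and of the BBSome and its assembly. Other genes of these groups went both ways in that fit, such as Ift70b (-0.21), Bbs5 (-0.02), Bbs4 (0.07), Bbs7 (0.07), Bbs10 (0.09), Ift80 (0.09) and Ift70a2 (0.28). Pkd1 and Pkhd1 were then at -0.13 and -0.07 with unadjusted p = 0.0959 and 0.365. The balance itself differed between the groups, at 2.08 to 2.94 in HSRA-S and 1.35 to 2.26 in HSRA-C. None of the 7 passed adjustment (smallest adjusted p = 0.576), and 7.93% of all genes were under the unadjusted threshold in that fit. Without HSRA-C replicates 3 and 4 the same genes were at -0.32 for Ift22, -0.32 for Ift27, -0.16 for Ift46, -0.25 for Bbs1, -0.19 for Bbs2, -0.13 for Bbs9 and -0.19 for Bbs12. Of these, Ift22 and Ift27 had an unadjusted p under 0.05 there, and the difference of Bbs9 was no wider than with all arrays.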
